A study of Mus musculus with 46 samples.

Results

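Bulk RNA-seq of MC-38 tumors taken at baseline was set against that of tumors from mice given isotype control antibody until day 15 after implantation. MC-38 is a colon carcinoma line of C57BL/6 mice that was injected under the skin of the right flank. The 8 tumors of this comparison, out of 46 samples in the series, were chosen by the group names in the labels. The 3 baseline tumors came from WT mice with treatment given as none and no time point. The 5 isotype tumors came from WT mice that had received 2 doses of isotype control antibody and were taken on day 8 of treatment, which is day 15 post-tumor implant. The groups therefore differ in the antibody injections, and the time of collection of the baseline tumors is not given. Effects of time and of the injections cannot be told apart. They also differ in their runs of sample identifiers, with no identifier run shared between them. The study's mice were age-matched females on a C57/BL6NTac background, aged 8 to 10 weeks. All of the tumors carry the same cell line, and nothing in the labels says whether any tumors shared a litter or cage. The p-values measure the spread between these tumors only.

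A subcutaneous tumor is a mixture of cancer cells and host cells. As it grows, its blood supply lags behind and cells in poorly perfused regions stabilize hypoxia-inducible factors, which raise glucose transporters, glycolytic enzymes, carbonic anhydrase and the enzymes that mark the factors themselves for destruction. Host monocytes enter and become macrophages, some of which carry lectin receptors, and fibroblasts lay down collagen and elastic fibres. Cytotoxic lymphocytes that reach the tumor make granzymes and IFN-γ, to which tumor and host cells respond. In bulk tissue, fewer cells of a type and less RNA per cell cannot be told apart.

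The values are FPKM, which scale a gene's fragments to transcript length and to the sample's mapped total, so the depth behind each tumor is unknown and precision is the spread between tumors. A difference is given as the log2 of FPKM + 0.1 in baseline minus isotype tumors with its standard error (SE), so negative values are lower in baseline. The scale understates changes of genes near 0. A call needed a 2-fold change or more together with an adjusted p below 0.01, and "passed" denotes an adjusted p under 0.05 with no fold limit (limma, Benjamini-Hochberg adjustment over all 14967 genes tested). Of these genes 64 were called higher in baseline (0.428%) and 25 lower (0.167%), and 287 (1.92%) and 169 (1.13%) passed in the same directions. Values of the groups did not overlap for 14.8% of all genes. An unadjusted p under 0.05 was found for 2647 of the 14967 genes, the background for the list counts given below. Correlations of log2 values ranged from 0.954 to 0.975 between baseline tumors, from 0.942 to 0.976 between isotype tumors and from 0.92 to 0.954 across the groups.

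A pair of tumors stood apart. Baseline tumor 3 had the lowest level of the pan-leukocyte gene Ptprc among the baseline tumors, and isotype tumor 3 had the highest globin levels and the highest FPKM sum, 569885 against 455797 to 509221 for the other isotype tumors and 508938 to 513968 for the baseline tumors. As a check of the tissue, Ptprc measured 24, 21 and 9.11 FPKM in the baseline tumors and 18, 20.2, 10.5, 25.9 and 17.5 FPKM in the isotype tumors, with a median of 0 in the 3 cultures of MC-38 cells, where it reached at most 0.0078 FPKM. Cd8a, a chain of the CD8 receptor of killer T cells, measured 3.58, 3.27 and 0.492 FPKM in the baseline tumors and 1.79, 2.37, 3.19, 4.41 and 3.68 FPKM in the isotype tumors. Levels of Pdcd1, which encodes PD-1, were 1.61, 2.23 and 0.0516 FPKM in the baseline tumors and 1.3, 1.42, 2.35, 3.36 and 1.95 FPKM in the isotype tumors. Its ligand gene Cd274 was at 12.3, 12.7 and 8.46 FPKM in the baseline tumors and 7.02, 12.6, 8.58, 20.1 and 10.6 FPKM in the isotype tumors. The groups overlapped for each of these genes, whose log2 differences were -0.09 (SE 0.34), -0.65 (SE 0.57), -1.29 (SE 0.78) and -0.0055 (SE 0.31), with adjusted p of 0.918, 0.591, 0.437 and 0.996. Of 11 tested genes of MC-38 epithelial and mesenchymal identity none passed, and 1 had an unadjusted p under 0.05.

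Among the 12865 protein-coding genes tested, 21 were called lower in baseline (0.163%) and 18 higher (0.140%), and the wider threshold was passed by 154 (1.20%) and 112 (0.871%). Groups did not overlap for 12.6% of the protein-coding genes and for all 39 of those called, which the call itself makes likely. Taken without baseline tumors 1, 2 and 3 in turn, 1, 1 and 8 of these 21 were still called, and 7, 10, 21, 18 and 1 without isotype tumors 1 to 5 in turn. At an adjusted p under 0.05, 19 of the 21 passed whichever tumor was left out. With both tumors numbered 3 removed together, 16 were still called, and all 21 kept their direction under every alternative tried. In the fit of all tumor groups of the antibody study together, 7 of the 21 were still called.

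**Figure D1:**
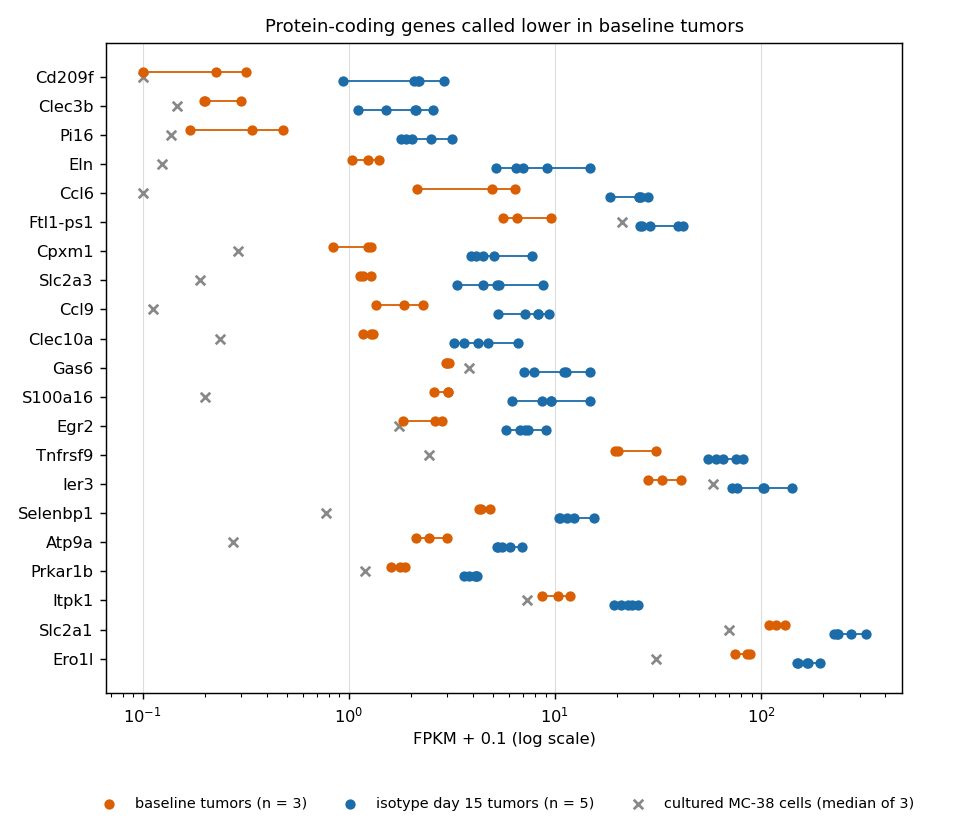
FPKM + 0.1 on a log scale of the 21 protein-coding genes called lower in baseline, with 1 point per tumor and lines over the range of each group (3 baseline and 5 isotype tumors). Crosses give the median of 3 cultures of MC-38 cells; each gene's baseline points lie below all of its isotype points, and Slc2a1 and Ero1l had the highest FPKM among genes of the hypoxia list shown.

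The genes called lower in baseline included Cd209f and Clec10a, which encode C-type lectin receptors, and 2 genes of CC chemokines. Cd209f, a C-type lectin of the DC-SIGN family, measured 0.126, 0.218 and 0 FPKM in the baseline tumors and 2.81, 1.97, 2.07, 0.839 and 2.09 FPKM in the isotype tumors, a log2 difference of -3.32 (SE 0.47, adjusted p = 0.0079). The lectin Clec10a, which binds galactose-type sugars, measured 1.21, 1.18 and 1.08 FPKM in the baseline tumors and 6.51, 3.15, 4.13, 3.5 and 4.62 FPKM in the isotype tumors, differing by -1.79 (SE 0.24, adjusted p = 0.00568) on the log2 scale. Baseline values were below every isotype value for both lectins, which were at medians of 0 and 0.139 in cultured cells. For Ccl6, a CC chemokine of myeloid cells, the values were 4.87, 6.31 and 2.05 FPKM in the baseline tumors and 25.4, 28.2, 25.4, 18.3 and 26.1 FPKM in the isotype tumors, with a log2 difference of -2.58 (SE 0.31, adjusted p = 0.00356). Ccl9, another CC chemokine of myeloid cells, gave 2.19, 1.76 and 1.25 FPKM in the baseline tumors and 8.21, 7.07, 8.21, 5.21 and 9.29 FPKM in the isotype tumors, and the log2 difference was -2.08 (SE 0.23, adjusted p = 0.00319). The groups did not overlap for these chemokines either, and isotype tumor 4 was the lowest isotype tumor for both. Cultured cells had a median of 0 FPKM for Ccl6 and 0.012 for Ccl9.

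On the list of 24 macrophage and monocyte markers 3 passed, all lower in baseline. These were the endotoxin co-receptor gene Cd14 at -1.46 (SE 0.22, adjusted p = 0.0102), the mannose receptor gene Mrc1 at -0.92 (SE 0.20, adjusted p = 0.0428) and Retnla, a secreted product of alternatively activated macrophages, at -4.01 (SE 0.68, adjusted p = 0.0154). Retnla measured 0.162, 0.501 and 0.333 FPKM in the baseline tumors and 14.4, 1.29, 12.1, 7.01 and 6.84 FPKM in the isotype tumors. The summed level of the list was 1098 to 1942 FPKM in the baseline tumors and 2079 to 2773 FPKM in the isotype tumors, and the median log2 difference over the list was -0.48 beside 0.06 over all genes tested, with 21 of the 24 below 0. Of the 3 that passed, 0, 1 and 3 passed without baseline tumors 1, 2 and 3 in turn, and 2, 2, 3, 2 and 2 without isotype tumors 1 to 5 in turn. Mmp12, a macrophage elastase and 1 of 19 genes of the list of matrix proteases and inhibitors, measured 5.83, 12.9 and 13.6 FPKM in the baseline tumors and 33.7, 39.5, 30.6, 31.1 and 29.5 FPKM in the isotype tumors, a difference of -1.69 (SE 0.25, adjusted p = 0.0102). The only other gene of that list to pass was Adam8, a membrane protease of myeloid cells, at -0.70 (SE 0.15, adjusted p = 0.0377), and 1, 1 and 1 of the 2 passed without baseline tumors 1, 2 and 3 in turn, and 1, 1, 2, 2 and 1 without isotype tumors 1 to 5 in turn.

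Markers of neutrophils, dendritic cells, mast cells and plasma cells that passed were all lower in baseline as well. Of 13 neutrophil markers 7 were tested and 4 passed: the calprotectin genes S100a8 at -2.59 (SE 0.56, adjusted p = 0.0407) and S100a9 at -4.35 (SE 0.71, adjusted p = 0.0131), the receptor gene Trem1 at -1.49 (SE 0.33, adjusted p = 0.0435), and Retnlg. S100a9 measured 0, 0.195 and 0 FPKM in the baseline tumors and 7.47, 3.67, 3.19, 0.585 and 3.28 FPKM in the isotype tumors. Retnlg was listed at 0 in all 3 baseline tumors and at 0.688, 1.55, 1.93, 0.328 and 1.19 FPKM in the isotype tumors (adjusted p = 0.011). The summed level of the list was 2.68 to 7.55 FPKM in the baseline tumors and 11.2 to 24.8 FPKM in the isotype tumors, low in both groups. Of the 4, 0, 2 and 3 passed without baseline tumors 1, 2 and 3 in turn, and 2, 2, 4, 3 and 2 without isotype tumors 1 to 5 in turn. The dendritic cell list gave 1 of 11, the chemokine gene Ccl17 at -2.48 (SE 0.53, adjusted p = 0.0386), and it did not pass without baseline tumors 1 or 2 or without isotype tumors 2, 3, 4 or 5. From the mast cell, basophil and eosinophil list 1 of 5 passed, the tryptase gene Tpsb2 at -2.34 (SE 0.40, adjusted p = 0.0154), and it did not pass without baseline tumor 1. Igkc, the constant region of the immunoglobulin kappa chain and the only immune receptor segment called, measured 0.546, 0.939 and 0.187 FPKM in the baseline tumors and 19.3, 3.54, 10.3, 6.94 and 7.23 FPKM in the isotype tumors, a difference of -3.83 (SE 0.54, adjusted p = 0.00781). It was 1 of 5 tested B and plasma cell markers, and it passed whichever tumor was left out. In the fit of all tumor groups of the antibody study together it did not pass.

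Elastin, encoded by Eln, measured 0.936, 1.3 and 1.14 FPKM in the baseline tumors and 14.7, 6.36, 6.88, 5.09 and 9.04 FPKM in the isotype tumors, a log2 difference of -2.71 (SE 0.31, adjusted p = 0.00322). Pi16, a marker of adventitial fibroblasts, was at 0.382, 0.241 and 0.0701 FPKM in the baseline tumors and 1.92, 3.05, 1.79, 2.41 and 1.7 FPKM in the isotype tumors, differing by -2.87 (SE 0.37, adjusted p = 0.00479). Clec3b, which encodes the plasminogen-binding protein tetranectin, was at 0.0979, 0.101 and 0.201 FPKM in the baseline tumors and 2.45, 1.99, 1.42, 1.01 and 2.02 FPKM in the isotype tumors, with a difference of -2.98 (SE 0.34, adjusted p = 0.00322). Each of these genes was near 0 in the cultured cells, whose medians were 0.0244, 0.0378 and 0.0475 FPKM, against baseline tumors of up to 1.3 FPKM for Eln. Cpxm1, a secreted carboxypeptidase-like protein, measured 1.15, 1.18 and 0.736 FPKM in the baseline tumors and 4.98, 7.67, 4.39, 3.84 and 4.03 FPKM in the isotype tumors, a difference of -2.16 (SE 0.26, adjusted p = 0.0037).

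On the list of 23 fibroblast and collagen genes 4 passed, all lower in baseline: Pi16, the Wnt antagonist gene Sfrp2 at -3.36 (SE 0.58, adjusted p = 0.0165), the collagen-binding proteoglycan gene Lum at -2.02 (SE 0.41, adjusted p = 0.033) and the lysyl oxidase gene Loxl1, whose product cross-links elastin, at -0.95 (SE 0.15, adjusted p = 0.0121). Sfrp2 measured 0.0484, 0.599 and 0.0497 FPKM in the baseline tumors and 3.26, 5.17, 1.52, 1.74 and 2 FPKM in the isotype tumors. The median difference over the list was -0.37 and 21 of 23 lay below 0, while the summed level overlapped at 2534 to 3766 FPKM in the baseline tumors and 2539 to 4834 FPKM in the isotype tumors. The list's first members that did not pass were Pdgfra at -0.22, Dcn at -0.46, Fap at -0.0037 and Postn at -0.10. Of the 4, 1, 3 and 2 passed without baseline tumors 1, 2 and 3 in turn, and 3, 3, 4, 3 and 3 without isotype tumors 1 to 5 in turn. In the endothelial list of 18 tested genes, 2 passed: the apelin receptor gene Aplnr at -1.80 (SE 0.33, adjusted p = 0.0197) and the hyaluronan receptor gene Lyve1 at -2.61 (SE 0.48, adjusted p = 0.0219). Of these, 0, 0 and 0 passed without baseline tumors 1, 2 and 3 in turn, and 1, 2, 2, 2 and 0 without isotype tumors 1 to 5 in turn. None of 10 genes of pericytes and smooth muscle passed, with 4 at an unadjusted p under 0.05 and a median of -0.57.

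Gas6, S100a16, Tnfrsf9 and Ftl1-ps1, which are on none of the lists, were also called lower in baseline. Gas6, a bridging ligand of the TAM receptor kinases through which phagocytes take up dying cells, measured 2.89, 2.86 and 2.97 FPKM in the baseline tumors and 14.7, 11.2, 7.84, 7.01 and 10.9 FPKM in the isotype tumors, a difference of -1.74 (SE 0.23, adjusted p = 0.0053). It was at a median of 3.75 FPKM in the cultured cells, close to the baseline tumors. S100a16, a calcium-binding protein, was at 2.5, 2.93 and 2.92 FPKM in the baseline tumors and 8.56, 9.42, 14.7, 6.11 and 9.52 FPKM in the isotype tumors, differing by -1.71 (SE 0.24, adjusted p = 0.0079). Tnfrsf9, a costimulatory receptor of the TNF receptor family known from activated lymphocytes, was chosen after its values were seen: it measured 20.2, 19.5 and 30.8 FPKM in the baseline tumors and 55.1, 65.2, 81.6, 60.3 and 75.6 FPKM in the isotype tumors, a difference of -1.53 (SE 0.18, adjusted p = 0.00327). Which cells of the tissue made Tnfrsf9 was not tested, and no gene of the T cell list passed. Ftl1-ps1 is annotated as protein-coding although its name marks it as a ferritin light chain pseudogene, and 66.2% of its 50-base stretches occur in another gene. It measured 9.48, 5.48 and 6.42 FPKM in the baseline tumors and 28.7, 26.2, 41.9, 25.9 and 39.3 FPKM in the isotype tumors, and since reads from the shared stretches cannot be told from those of its relatives, its difference of -2.18 (SE 0.22, adjusted p = 0.00231) is uncertain. Selenbp1, a methanethiol oxidase, Atp9a, a phospholipid flippase, Prkar1b, a regulatory subunit of protein kinase A, and Itpk1, an inositol phosphate kinase, were also called, outside the rule for named genes. Their log2 differences were -1.41, -1.21, -1.19 and -1.13, and Itpk1 had the highest level of them at 11.7, 10.2 and 8.53 FPKM in the baseline tumors and 20.8, 19.2, 25.3, 23.5 and 22.4 FPKM in the isotype tumors.

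All 25 genes of the hypoxia and glycolysis list had log2 differences below 0 and 7 passed, all lower in baseline, with a list median of -0.33. The glucose transporter gene Slc2a1 measured 131, 117 and 109 FPKM in the baseline tumors and 236, 225, 321, 233 and 272 FPKM in the isotype tumors, a difference of -1.10 (SE 0.14, adjusted p = 0.00406). Ero1l, an oxidase that forms disulphide bonds in the endoplasmic reticulum, measured 85.6, 74.4 and 87.7 FPKM in the baseline tumors and 168, 167, 152, 193 and 149.6 FPKM in the isotype tumors, a difference of -1.0 (SE 0.11, adjusted p = 0.00319). Both were called, and for both every baseline tumor was below every isotype tumor. The carbonic anhydrase gene Car9 was at 55.4, 47.2 and 65.8 FPKM in the baseline tumors and 89.1, 87.5, 155, 109 and 125 FPKM in the isotype tumors, with a difference of -0.99 (SE 0.20, adjusted p = 0.0289). Medians in the cultured cells were lower again, at 69.6 FPKM for Slc2a1, 30.8 for Ero1l and 12.3 for Car9. The stress-responsive gene Ndrg1 differed by -0.84 (SE 0.13, adjusted p = 0.011) and the mitophagy receptor gene Bnip3 by -0.61 (SE 0.10, adjusted p = 0.0154). Egln3 and Egln1, prolyl hydroxylases that mark hypoxia-inducible factors for degradation, differed by -0.75 (SE 0.11, adjusted p = 0.00792) and -0.54 (SE 0.10, adjusted p = 0.0188). Summed over the list the level was 6460.1 to 6799.6 FPKM in the baseline tumors and 7126 to 10267 FPKM in the isotype tumors, highest in isotype tumor 3. Of the 7, 2, 3 and 7 passed without baseline tumors 1, 2 and 3 in turn, and 7, 7, 7, 6 and 4 without isotype tumors 1 to 5 in turn, and 0 passed in the fit of all tumor groups of the antibody study. Slc2a3, a high-affinity glucose transporter that is not on the list, measured 1.08, 1.03 and 1.18 FPKM in the baseline tumors and 5.16, 8.7, 4.36, 3.25 and 5.24 FPKM in the isotype tumors, a difference of -2.11 (SE 0.28, adjusted p = 0.00553).

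Hypoxia-inducible factors bind a short core, ACGTG or GCGTG, on either strand. The 250 bases before the RefSeq gene start were read for the genes of the list that passed, since these moved together. Promoters were found for 6 of the 7 genes (RefSeq, GRCm38.p6), with Ero1l under its current symbol Ero1a and Ndrg1 unmatched. Except for Egln3, the windows reach into the gene as GENCODE M21 annotates it. Ero1l extends there to chr14:45318771, so all 3 of its cores lie within that gene. All 6 held at least 1 core and 4 held 2 or more. Among 32817 promoter windows of the same length, 38.6% held at least 1 and 16.7% held 2 or more. A core is therefore common, and a match is a description, not a binding site. The list was chosen as hypoxia genes, and promoters of members that did not pass are not reported here. Whether cores go with passing was not tested. The capitals mark the cores below, on either strand and with overlaps merged, for Slc2a1 (upstream of its start, chr4:119108495-119108744, plus strand), Bnip3 (chr7:138909507-138909756, minus strand) and Ero1l (chr14:45318573-45318822, minus strand), which held the most cores or the largest differences.
Slc2a1: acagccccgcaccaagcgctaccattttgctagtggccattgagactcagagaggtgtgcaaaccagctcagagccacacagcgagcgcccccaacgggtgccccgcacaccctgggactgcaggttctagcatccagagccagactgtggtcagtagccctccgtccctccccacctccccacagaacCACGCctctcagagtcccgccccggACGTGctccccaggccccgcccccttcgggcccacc
Bnip3: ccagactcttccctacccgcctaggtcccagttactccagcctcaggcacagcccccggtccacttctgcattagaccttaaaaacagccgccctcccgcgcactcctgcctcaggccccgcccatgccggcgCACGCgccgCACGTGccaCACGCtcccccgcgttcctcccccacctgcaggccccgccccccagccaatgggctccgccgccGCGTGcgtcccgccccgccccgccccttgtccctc
Ero1l: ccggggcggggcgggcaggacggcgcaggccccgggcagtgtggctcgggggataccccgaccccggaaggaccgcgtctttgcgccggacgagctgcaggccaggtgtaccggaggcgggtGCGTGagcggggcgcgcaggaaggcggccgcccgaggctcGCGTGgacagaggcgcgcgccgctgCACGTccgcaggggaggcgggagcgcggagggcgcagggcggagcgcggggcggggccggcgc
The Car9 window (chr4:43506776-43507025, plus strand) held 1 core, 18 bases before the start, and that of Egln3 (chr12:54203875-54204124, minus strand) held 1 at 229 bases. Slc2a1 held 2 and Egln1 2, Ero1l 3 and Bnip3 5, where overlapping matches on the 2 strands count separately.

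Immediate-early genes are transcribed soon after growth factor or stress signals. Of 24 such genes and heat-shock genes 8 passed, all lower in baseline, with a list median of -0.74 and 22 of 24 below 0. The transcription factor gene Egr2 measured 1.73, 2.74 and 2.52 FPKM in the baseline tumors and 7.04, 6.64, 7.26, 5.69 and 9 FPKM in the isotype tumors, a difference of -1.58 (SE 0.20, adjusted p = 0.0043). Ier3, an early-response gene linked to survival signalling, was at 33, 28.3 and 40.7 FPKM in the baseline tumors and 76.1, 102, 141, 72.2 and 103 FPKM in the isotype tumors, a difference of -1.51 (SE 0.21, adjusted p = 0.00812). No baseline value reached the lowest isotype value for these called genes. Ier3 stood at a median of 58.4 FPKM in the cultured cells, above every baseline tumor. The remaining 6 were the transcription factors Junb (-0.95, SE 0.16), Egr1 (-1.45, SE 0.23) and Atf3 (-1.10, SE 0.19), the inducible chaperone Hspa1a (-1.72, SE 0.31), and the growth-arrest genes Btg2 (-1.02, SE 0.17) and Gadd45b (-0.88, SE 0.18). For Hspa1a, 60.3% of 50-base stretches occur in another gene, so its difference is uncertain. Members that did not pass included Fos at -1.08, Fosb at -1.04, Jun at 0.019 and Jund at -0.41. Summed levels were 518 to 544 FPKM in the baseline tumors and 626 to 898 FPKM in the isotype tumors, with no overlap. Of the 8, 1, 4 and 4 passed without baseline tumors 1, 2 and 3 in turn, and 7, 8, 8, 7 and 6 without isotype tumors 1 to 5 in turn.

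From the list of inflammatory cytokines and chemokines, 4 of 24 tested genes passed, all lower in baseline. Cxcl1, a chemokine that attracts neutrophils, measured 2.03, 2.88 and 4.43 FPKM in the baseline tumors and 22.8, 15.7, 15, 7.49 and 16.3 FPKM in the isotype tumors, a difference of -2.26 (SE 0.34, adjusted p = 0.0109). Il1b, the cytokine interleukin-1 beta, measured 11.7, 12.2 and 8.73 FPKM in the baseline tumors and 18.2, 24, 31.5, 34.2 and 33.2 FPKM in the isotype tumors, a difference of -1.34 (SE 0.22, adjusted p = 0.0131). The groups did not overlap for either gene. Csf3, the growth factor of neutrophils, differed by -1.81 (SE 0.33, adjusted p = 0.0195) and Ptgs2, the inducible cyclooxygenase, by -0.94 (SE 0.16, adjusted p = 0.0174). Of the 4, 0, 1 and 4 passed without baseline tumors 1, 2 and 3 in turn, and 4, 4, 4, 4 and 3 without isotype tumors 1 to 5 in turn. In the unfolded protein and amino acid stress list 3 of 16 passed, all lower in baseline: the glutathione-degrading enzyme gene Chac1 at -1.28 (SE 0.29, adjusted p = 0.049), the endoplasmic reticulum gene Herpud1 at -0.68 (SE 0.13, adjusted p = 0.0241) and the stress hormone gene Fgf21 at -1.83 (SE 0.39, adjusted p = 0.0387), of which 0, 0 and 2 passed without baseline tumors 1, 2 and 3 in turn, and 0, 2, 3, 1 and 0 without isotype tumors 1 to 5 in turn. Of 18 clock and glucocorticoid response genes 2 passed, the clock activator gene Arntl at -0.51 (SE 0.11, adjusted p = 0.0389) and the repressor gene Bhlhe40, which is also induced by hypoxia, at -0.72 (SE 0.13, adjusted p = 0.022). For these, 0, 0 and 2 passed without baseline tumors 1, 2 and 3 in turn, and 1, 1, 2, 1 and 0 without isotype tumors 1 to 5 in turn.

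On the list of red cells and platelets 3 of 7 tested genes passed, all lower in baseline. The alpha-globin gene Hba-a1 measured 0.841, 1.73 and 0.784 FPKM in the baseline tumors and 18.9, 8.06, 186, 14 and 23.1 FPKM in the isotype tumors, a difference of -4.43 (SE 0.84, adjusted p = 0.024). Hbb-bs, a beta-globin gene, measured 9.59, 5.36 and 1.88 FPKM in the baseline tumors and 46, 26.4, 465, 50.6 and 50.6 FPKM in the isotype tumors, a difference of -3.85 (SE 0.85, adjusted p = 0.0435). Isotype tumor 3 was far above the other isotype tumors, and the baseline tumors were below all isotype tumors. Pf4, a chemokine of platelets and also of some macrophages, differed by -1.33 (SE 0.23, adjusted p = 0.0173). Of the 3, 0, 1 and 1 passed without baseline tumors 1, 2 and 3 in turn, and 1, 3, 3, 2 and 0 without isotype tumors 1 to 5 in turn. The alpha-globin and beta-globin genes have near-identical copies, so their single values are uncertain. The part of blood in the other differences was not tested, and 21 of the 21 protein-coding genes called lower in baseline were still called without isotype tumor 3.

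**Figure D2:**
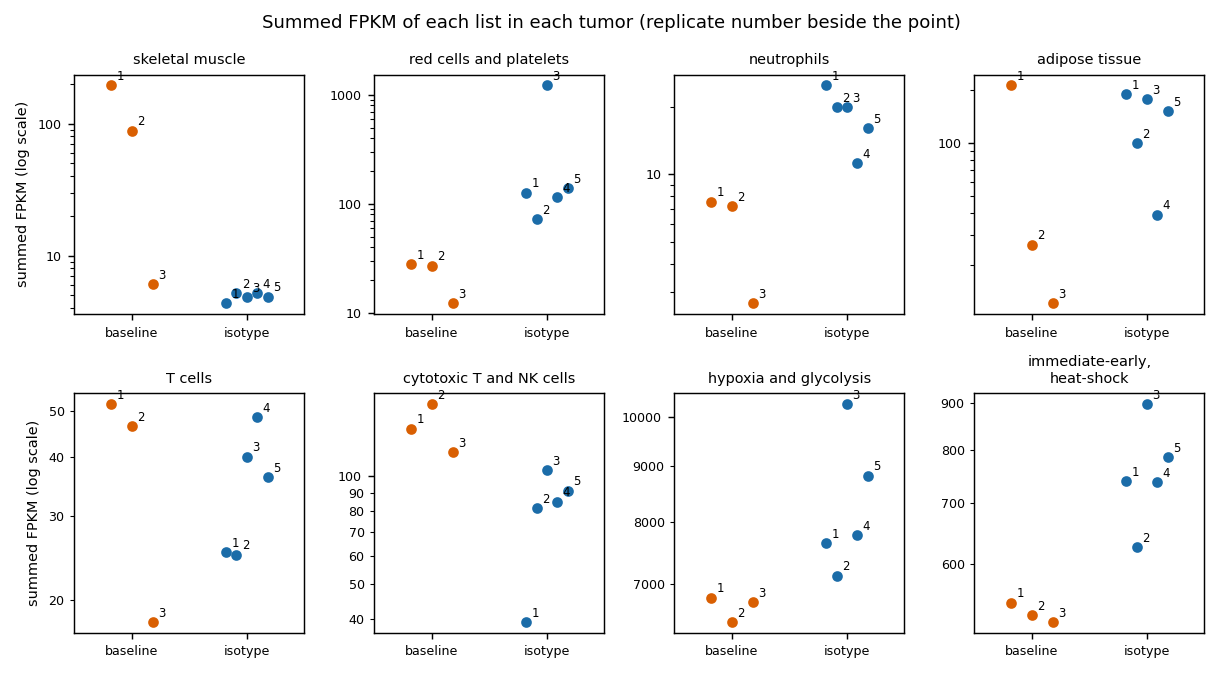
Summed FPKM (log scale, axis limits set per panel) of 8 gene lists in each of the 3 baseline and 5 isotype tumors, with the replicate number beside each point. The sums of the hypoxia and of the immediate-early list were lower in every baseline tumor than in every isotype tumor; the skeletal muscle sum was 195, 88.7 and 6.1 FPKM in baseline tumors 1, 2 and 3.

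Among the 8 tumors, skeletal muscle RNA was high in baseline tumors 1 and 2. Acta1, the actin of skeletal muscle fibres, measured 36.5, 17.3 and 0.344 FPKM in the baseline tumors and 0.116, 0.0592, 0, 0 and 0.13 FPKM in the isotype tumors, a difference of 5.44 (SE 1.20, adjusted p = 0.0432). Tnnt3, a troponin of fast fibres, measured 24.1, 10.7 and 0.627 FPKM in the baseline tumors and 0.132, 0.245, 0, 0.416 and 0.126 FPKM in the isotype tumors, a difference of 4.54 (SE 1.00, adjusted p = 0.0437). These 2 of 16 tested genes passed, the list median was 2.94 and all 16 were above 0. In the isotype tumors of day 11, outside the comparison, Acta1 had a median of 9.3 and reached 78.5 FPKM. The muscle sum was 6.1 FPKM in baseline tumor 3, against 4.37 to 5.18 FPKM in the isotype tumors. Of the 2, 0, 0 and 2 passed without baseline tumors 1, 2 and 3 in turn, and 0, 0, 2, 0 and 0 without isotype tumors 1 to 5 in turn. Fat showed another pattern, with no gene of 12 passing. The fat gene Adipoq measured 5.17, 0.155 and 0 FPKM in the baseline tumors and 6.86, 1.79, 7.25, 0.541 and 5.03 FPKM in the isotype tumors, so that baseline tumor 1 was like the isotype tumors and baseline tumors 2 and 3 were near 0. Muscle and fat lie around a flank tumor, and the part that adjoining tissue took in the other differences was not tested.

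Among cytotoxic T and NK cell genes, 1 of 19 tested passed. Gzmc, a granzyme of activated killer cells, measured 20.6, 29 and 15.8 FPKM in the baseline tumors and 1.52, 6.42, 5.35, 2.24 and 7.97 FPKM in the isotype tumors, a difference of 2.39 (SE 0.50, adjusted p = 0.038), so that the lowest baseline tumor was above the highest isotype tumor. Gzma, Gzmb, Gzmd and Gzme did not pass, with differences of 1.45 (adjusted p = 0.0529), 1.01 (0.211), 1.68 (0.473) and 0.93 (0.498). The list median was 0.72, and the summed level was 117 to 159 FPKM in the baseline tumors and 39.2 to 104 FPKM in the isotype tumors. For Gzmc, it did not pass without baseline tumors 1, 2 or 3 or without isotype tumor 4. None of 19 T cell genes passed, and 2 had an unadjusted p under 0.05. Cd3d, Cd3e, Cd3g and Cd247, the chains of the T cell receptor complex, differed by -0.50, -0.56, -0.24 and 0.77 with SEs of 0.46, 0.53, 0.56 and 0.24. Cd3e measured 2.43, 1.88 and 0.485 FPKM in the baseline tumors and 0.932, 1.55, 2.77, 3.27 and 2.46 FPKM in the isotype tumors, and baseline tumor 3 was the lowest of all 8.

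The interferon lists had a single passing gene. Nlrc5, the activator of MHC class I transcription, measured 53.2, 48.8 and 44.1 FPKM in the baseline tumors and 16.1, 25.1, 25.8, 33.3 and 23.5 FPKM in the isotype tumors, a difference of 1.01 (SE 0.20, adjusted p = 0.0281), with no overlap. It was 1 of 27 tested genes of the IFN-γ response, whose median was 0.29, and it did not pass without baseline tumors 1, 2 or 3 or without isotype tumor 5. Irf1, Gbp2 and Gbp3 did not pass, at -0.07, 0.91 and 0.79. None of 21 type I interferon genes passed (1 at an unadjusted p under 0.05). Genes of cell division gave none either. None of 20 DNA replication genes (median 0.07) and none of 21 mitosis genes (median 0.12) passed, with 1 and 2 at an unadjusted p under 0.05. Mki67, the proliferation marker, measured 38.4, 42.6 and 36.3 FPKM in the baseline tumors and 33.4, 41.9, 16.6, 37.1 and 23.5 FPKM in the isotype tumors. Cholesterol synthesis and uptake, with 20 genes tested, also had 0 passing and 4 at an unadjusted p under 0.05, as had keratinocytes (5 tested, 3) and Schwann cells (6 tested, 2). Over all genes, 2647 of 14967 had an unadjusted p under 0.05.

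**Figure D3:**
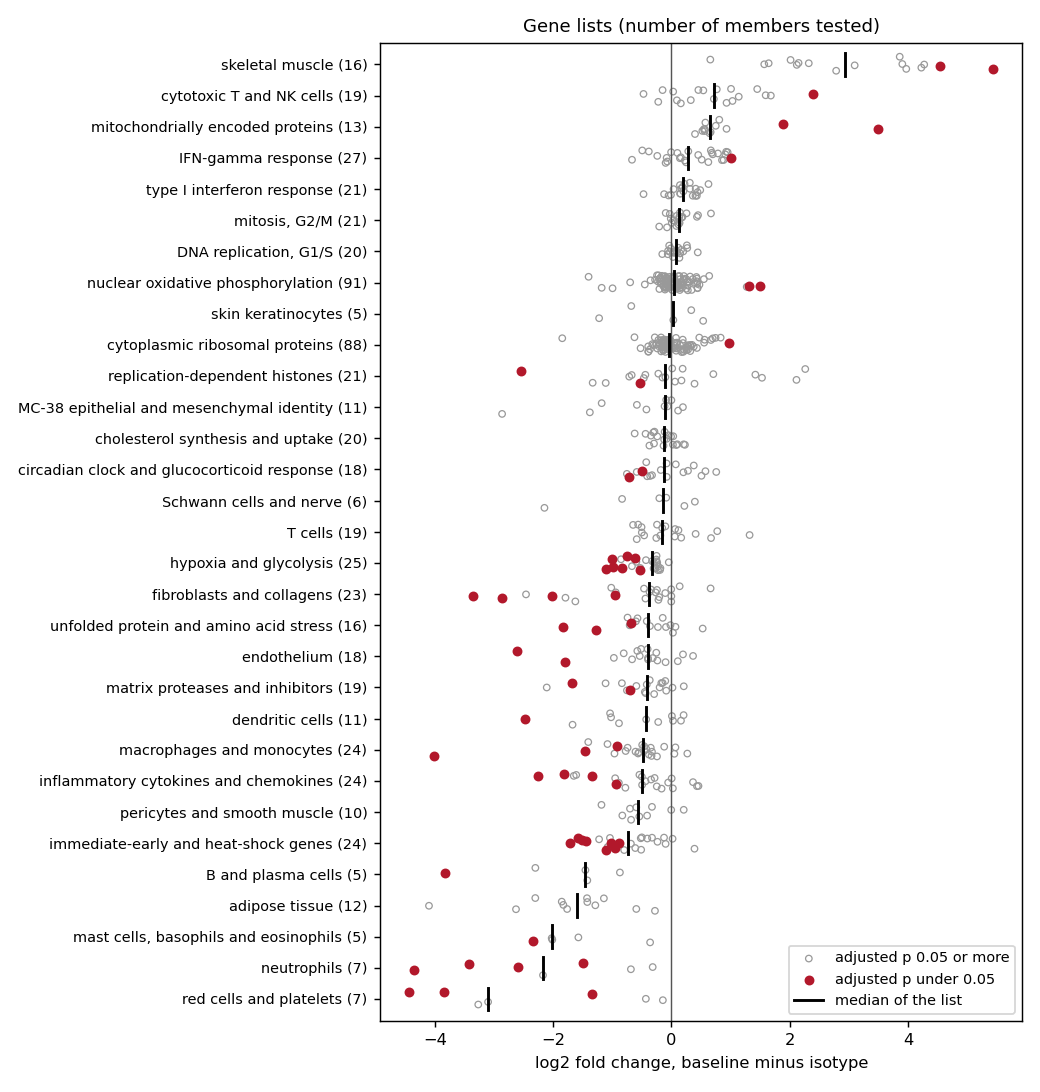
Log2 fold change, baseline minus isotype, of every tested member of each list (filled red points have an adjusted p under 0.05, open points do not), with the list median as a black bar and lists in order of that median. Passing members sit on the negative side for hypoxia, immediate-early, macrophage and fibroblast genes and on the positive side for skeletal muscle. Retnlg is drawn at its fitted value, although it was listed at 0 in every baseline tumor.

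The protein-coding genes called higher in baseline were of another kind. Leading them was mt-Atp8, a small subunit of ATP synthase encoded in mitochondrial DNA, which measured 1925, 1989 and 3199 FPKM in the baseline tumors and 238, 283, 117, 242 and 194 FPKM in the isotype tumors, a difference of 3.49 (SE 0.29, adjusted p = 0.000942). Its median in cultured cells was 2491 FPKM. The gene of a complex I subunit, mt-Nd4l, measured 462, 488 and 761 FPKM in the baseline tumors and 203, 206, 66.8, 200.1 and 139 FPKM in the isotype tumors, a difference of 1.88 (SE 0.36, adjusted p = 0.0261), and these 2 of the 13 mitochondrial protein genes passed. All 13 were above 0, with a median of 0.65. Of the 50-base stretches of mt-Nd4l, 98.8% occur in another gene, so its difference is uncertain. The nuclear respiratory chain genes Ndufc1, a subunit of complex I, and Atp5k, a subunit of ATP synthase, passed at 1.49 (SE 0.19, adjusted p = 0.00457) and 1.31 (SE 0.21, adjusted p = 0.0131), as 2 of 91 nuclear genes of oxidative phosphorylation. Of 88 cytoplasmic ribosomal protein genes 1 passed, Rps29, at 0.98 (SE 0.22, adjusted p = 0.0478), with values of 839, 814 and 786 FPKM in the baseline tumors and 378, 307, 643, 342 and 469 FPKM in the isotype tumors. Medians over these 2 nuclear lists were 0.04 and -0.05. Of all genes tested 1.92% passed higher in baseline, and of protein-coding genes 0.871%, so such counts are near the background. Of the 2 mitochondrial genes, 1, 1 and 1 passed without baseline tumors 1, 2 and 3 in turn, and 2, 2, 2, 2 and 1 without isotype tumors 1 to 5 in turn. Ndufc1 and Atp5k fared alike, of which 1, 1 and 2 passed without baseline tumors 1, 2 and 3 in turn, and 2, 2, 2, 2 and 2 without isotype tumors 1 to 5 in turn. For Rps29, it did not pass without baseline tumors 1, 2 or 3 or without isotype tumors 1, 2, 4 or 5.

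Several of the remaining genes called higher in baseline are best known from other tissues. Gnat1, transducin of rod photoreceptors, measured 4.03, 2.81 and 3.5 FPKM in the baseline tumors and 0.637, 0.738, 0.484, 0.195 and 0.327 FPKM in the isotype tumors, a difference of 2.71 (SE 0.36, adjusted p = 0.00605). Zan, a sperm protein that binds the egg coat, measured 1.16, 1.06 and 0.91 FPKM in the baseline tumors and 0.182, 0.11, 0.182, 0.0995 and 0.125 FPKM in the isotype tumors, a difference of 2.26 (SE 0.33, adjusted p = 0.00948). Gadl1, a decarboxylase of acidic amino acids in muscle and brain, measured 18.5, 19.4 and 19.2 FPKM in the baseline tumors and 3.97, 3.27, 5.96, 3.64 and 3.66 FPKM in the isotype tumors, a difference of 2.22 (SE 0.19, adjusted p = 0.000942). Each was at a similar level in the cultures, where the medians were 5.2, 1.09 and 23.3 FPKM. In tumors of tamoxifen-treated WT mice Gnat1 was at 0 to 0.308, Zan at 0.0207 to 0.187 and Gadl1 at 0 to 0.008 FPKM. Whether reads listed for these genes came from their messages was not tested. Ulk4, a pseudokinase, measured 6.28, 5.95 and 7.21 FPKM in the baseline tumors and 2.09, 1.59, 2.1, 2.04 and 2.12 FPKM in the isotype tumors, a difference of 1.66 (SE 0.16, adjusted p = 0.00202). The values of Ubxn11, a protein with a ubiquitin regulatory domain, were 4.38, 3.79 and 4.71 FPKM in the baseline tumors and 1.03, 0.98, 1.2, 1.37 and 1.34 FPKM in the isotype tumors, with a cultured median of 1.25 FPKM and a difference of 1.78 (SE 0.19, adjusted p = 0.00319). Smim27, BC049715, Gm8797, Gm29666, Gm21887 and CAAA01147332.1 differed by 1.62, 2.04, 1.92, 1.87, 1.59 and 1.97. Of the 50-base stretches of Gm8797 and Gm21887, 84.1% and 59.7% occur in another gene, so their differences are uncertain. Gm17728, Prickle3, Nphs1, Shisal2b and Phykpl, outside the rule for named genes, were called as well and differed by 1.56, 1.42, 1.24, 1.23 and 1.01. In tumors of tamoxifen-treated WT mice Gm17728 was at 0 and Nphs1 at 0 to 0.0449 FPKM. Prickle3, Shisal2b and Phykpl had medians of 0.576, 16.0 and 8.18 FPKM there.

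All 3 cultures were above all 5 isotype tumors for 16 of the 18 genes called higher in baseline, beside 30.1% of the protein-coding genes tested. By contrast the cultured median was below every isotype tumor for 21 of the 21 called lower in baseline, beside 32.6%. In the isotype tumors of day 11, which did not enter the fit, the median was below all baseline tumors for 18 of the 18 (37.4% of those tested) and above all baseline tumors for 21 of the 21 (23.1%). The culture counts reuse the isotype tumors and the day 11 counts reuse the baseline tumors on which these genes were called. Part of each excess over the share of tested genes can therefore follow from the choice of genes. Among the 18, 2, 2 and 3 were still called without baseline tumors 1, 2 and 3, and 6, 8, 18, 11 and 3 without isotype tumors 1 to 5. At an adjusted p under 0.05, 14 of the 18 passed whichever tumor was left out. Exon bases overlapped a gene on the opposite strand for 11 of the 18 and 5 of the 21, beside 31.4% of protein-coding genes. Whether reads of these genes came from the opposite strand was not tested.

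**Figure D4:**
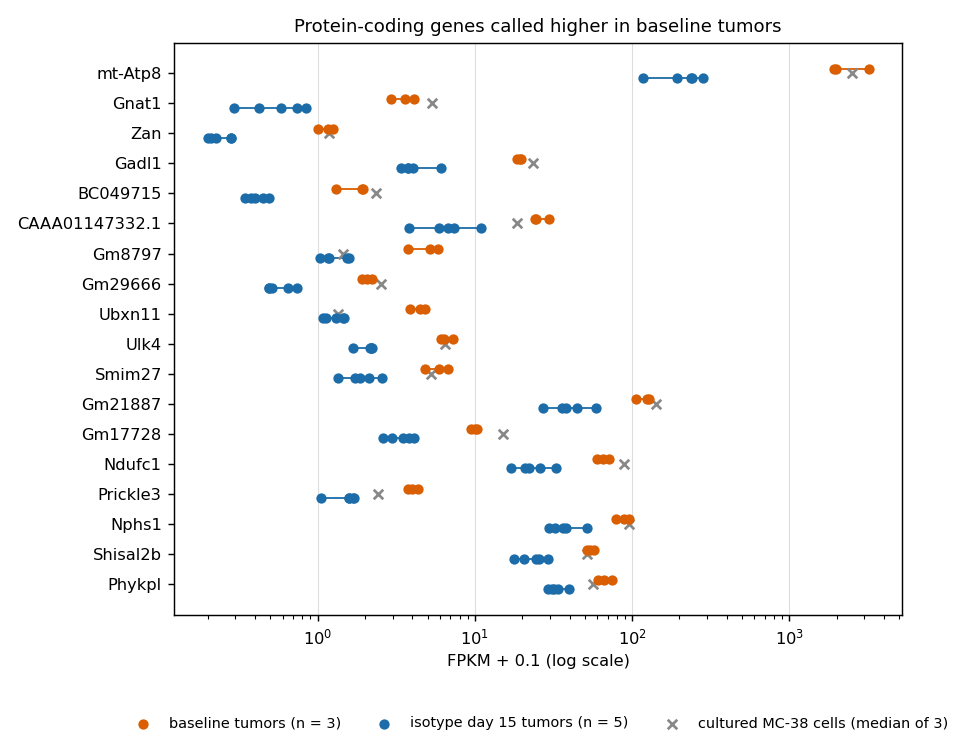
FPKM + 0.1 on a log scale of the 18 protein-coding genes called higher in baseline, drawn with 1 point per tumor and lines over the range of each group. Crosses are medians of 3 cultures of MC-38 cells; for 16 of the genes all 3 cultures lay above every isotype tumor, and Ubxn11 and Gm8797 are the exceptions.

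Pseudogenes and noncoding genes are reported apart, because many share sequence with protein-coding genes or lie opposite them, and they may reflect differences between libraries. Of 2091 tested, 46 were called higher in baseline (2.20%) and 3 lower (0.143%). The 46 were 22 pseudogenes, 22 long noncoding genes, the small nucleolar RNA gene Snora16a and 1 gene identifier without an annotation. None of 1386 long noncoding genes was called lower, and 118 passed higher against 0 lower. Median log2 differences were 0.53 over long noncoding genes, 0.57 over 637 pseudogenes and 0.03 over protein-coding genes. Of the 46, 7, 8 and 21 were still called without baseline tumors 1, 2 and 3 in turn and 26, 28, 46, 33 and 14 without isotype tumors 1 to 5, and 39 had an adjusted p under 0.05 whichever tumor was left out.

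The largest differences were in processed pseudogenes, copies of spliced messages without introns. Gm12918 (chr4:10848420-10849055, GRCm38) measured 57, 65.6 and 34.8 FPKM in the baseline tumors and was at or near 0 in all 5 isotype tumors, the highest of them at 0.0003 FPKM (adjusted p = 3.81e-07). All of its 50-base stretches occur in Rpl13, the gene of a large-subunit ribosomal protein, and the aligned 633 bases of its coding sequence hold 0 differences. Rpl13 itself differed by -0.19 (adjusted p = 0.639). Levels of Gm12918 were 26.7 to 83.5 FPKM in the cultures and ran from near 0 to 157 FPKM in the isotype tumors of day 11. Gm4332 (chr3:119709516-119709861) measured 134, 133 and 121 FPKM in the baseline tumors and 3.93, 7.24, 13.9, 5.02 and 6.75 FPKM in the isotype tumors, a difference of 4.25 (SE 0.33, adjusted p = 0.000877). It differs at 1 of 346 aligned bases from the coding sequence of Rps20, whose own difference was 0.55 (adjusted p = 0.195). Reads of 50 bases that miss this base cannot be told apart. The following stretches (GENCODE M21 transcripts) show the differing bases in capitals, with the pseudogene first, and the opening of Gm12918, which is the same in Rpl13.
Gm4332: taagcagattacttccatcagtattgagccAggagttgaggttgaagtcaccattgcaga
Rps20: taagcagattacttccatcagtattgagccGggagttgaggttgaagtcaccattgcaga
Gm13092: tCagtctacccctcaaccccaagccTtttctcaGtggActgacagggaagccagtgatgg
Snrpf: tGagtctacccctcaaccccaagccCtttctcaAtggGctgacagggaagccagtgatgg
Gm12918: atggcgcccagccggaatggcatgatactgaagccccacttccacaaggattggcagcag
Gm13092 (chr4:150315177-150315436) measured 7.35, 6.08 and 3.55 FPKM in the baseline tumors and 0.411, 0, 0, 0 and 0 FPKM in the isotype tumors, a difference of 5.32 (SE 0.60, adjusted p = 0.00319), while its coding relative Snrpf, a spliceosome protein gene, differed by 0.10. Gm10221 (chr5:24581554-24581862) measured 18.6, 10.2 and 16.3 FPKM in the baseline tumors and 0.814, 0, 0.411, 0 and 0 FPKM in the isotype tumors, a difference of 6.09 (SE 0.77, adjusted p = 0.00474), and its relative Atp5l, an ATP synthase subunit gene, differed by 0.12.

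Gm10357, a copy of Hmgn2, and the long noncoding gene Gm43940 were at 1.04, 1.57 and 1 and 2.35, 1.21 and 1.81 FPKM in the baseline tumors and listed at 0 in all isotype tumors. Of the 3 pseudogenes called lower in baseline, those with a group mean of at least 1 FPKM were Gm10110 (0.341, 0.297 and 0.681 FPKM in the baseline tumors and 1.47, 2.15, 2.44, 2.08 and 2.82 FPKM in the isotype tumors, -2.12) and Gm21596 (15.8, 17.6 and 7.78 FPKM in the baseline tumors and 70.5, 53, 42.3, 59.5 and 50.3 FPKM in the isotype tumors, -2.06), relatives of Pabpc4 and Hmgb1. Of the relatives of called pseudogenes that were tested, 1 had an adjusted p under 0.05, which was Tomm20 at 0.74 (adjusted p = 0.0109). The median share of 50-base stretches found in another gene was 82.8% for the 22 pseudogenes called higher, beside 69.4% for all pseudogenes tested. For the 22 long noncoding genes called, a median of 43.3% of exon bases lay opposite an exon of a gene on the other strand, beside 8.86% over those tested. Whether their reads came from that other strand was not tested. All 3 cultures were above all isotype tumors for 42 of the 46, beside 39.1% of the pseudogenes and 40.1% of the long noncoding genes tested. These genes were called on the same isotype tumors, so part of this excess can follow from the choice of genes. Whether the library or the tissue sets these differences cannot be told apart, since baseline and isotype tumors share no identifier run.

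Differences were largest among the shortest genes of each class. Pseudogenes of up to 300 exon bases had a median log2 difference of 2.33 (30 genes), against 0.93 for 301 to 600 bases and 0.25 for 1001 to 2000 bases. Long noncoding genes went from 2.53 (25 genes) to 1.16 and 0.50 over the same bins. Protein-coding genes of up to 300 bases had a median of 1.89, but these were 9 genes, and those of 301 to 600 bases had 0.18 (73 genes). Of the protein-coding genes described above, mt-Atp8 and mt-Nd4l have 204 and 297 exon bases, and Atp5k, Rps29 and Ndufc1 have 616, 693 and 1495 over all of their transcripts. The part of length in their differences was not tested.

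**Figure D5:**
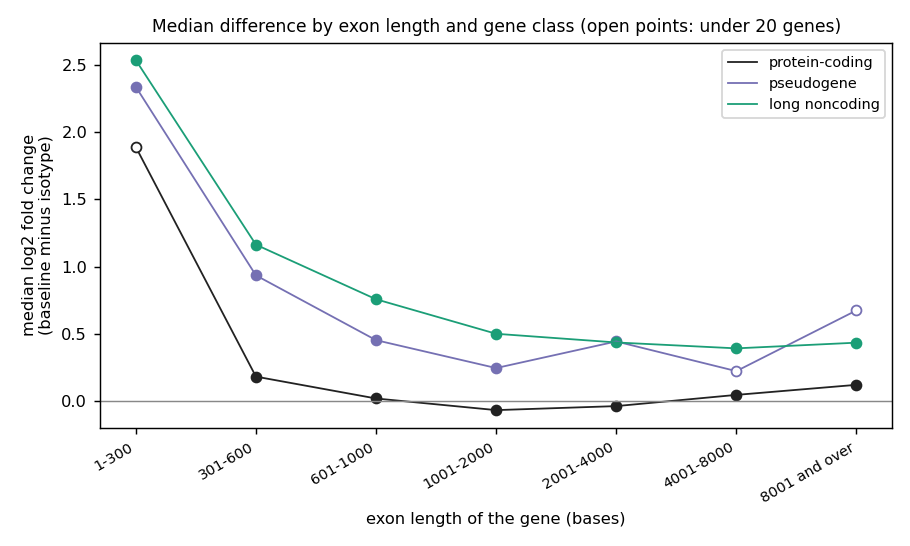
Median log2 fold change, baseline minus isotype, of tested genes in bins of exon length (bases, x axis), drawn for protein-coding genes, pseudogenes and long noncoding genes. The medians in the shortest bin were 1.89, 2.33 and 2.53; open points hold fewer than 20 genes.

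Shares of the summed FPKM were compared by exact 2-sided permutation tests over 56 assignments, in which the smallest p is 0.0357. Nuclear protein-coding genes held 88.5, 88.1 and 84.4% in the baseline tumors and 90.9, 90.5, 91.3, 91 and 91% in the isotype tumors, an exact p of 0.0357 and an adjusted p of 0.0625 over 7 shares. Pseudogenes held 4.37, 4.57 and 5.38% in the baseline tumors and 3.42, 3.46, 3.58, 3.34 and 3.41% in the isotype tumors. Long noncoding genes held 2.39, 2.37 and 2.48% in the baseline tumors and 1.93, 2.01, 2.04, 1.96 and 1.97% in the isotype tumors, and genes of mitochondrial DNA held 4.58, 4.9 and 7.65% in the baseline tumors and 3.69, 3.96, 3, 3.58 and 3.48% in the isotype tumors. The groups did not overlap for any of these 4 shares, each with an exact p of 0.0357 and an adjusted p of 0.0625, so none passed after adjustment. With so few tumors a share could pass only if nearly all 7 stood at the smallest p. Ribosomal protein genes differed by -0.424 percentage points (exact p = 0.893), replication-dependent histones by -0.00563 (exact p = 0.0714) and short noncoding genes by 0.00176 (exact p = 0.714). Of 21 tested genes of the histone list 2 passed, Hist1h2bc at -0.54 (SE 0.11, adjusted p = 0.0382) and Hist1h2ap at -2.54 (SE 0.58, adjusted p = 0.0497). Of these, 1, 0 and 0 passed without baseline tumors 1, 2 and 3 in turn, and 0, 1, 1, 0 and 0 without isotype tumors 1 to 5 in turn. For Hist1h2ap, 93.1% of 50-base stretches occur in another gene, so its difference is uncertain. It was at 315 to 765 FPKM in the tumors of tamoxifen-treated WT mice, and the part of the library in histone levels was not tested.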

How the data were processed

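RNA was extracted from whole tumors. For the libraries the paper describes a stranded total RNA kit with ribosomal RNA removal, and paired 50-base reads. Hist1h2ap was at 0 to 0.522 FPKM in baseline and 0.717 to 1.18 FPKM in isotype tumors. In tumors of tamoxifen-treated WT mice it was at 315 to 765 FPKM. Gm42457, 100% of it opposite another gene, was at 8.71 to 13.3, 4.20 to 4.89 and 0 to 0.271 FPKM in these groups. Rps23-ps1, 93.2% opposite, was still at 13.4 to 97.2 FPKM in the tamoxifen-treated WT mice. Whether this kit was used for every library was not tested. The authors aligned reads to the mouse genome B38 with the Omicsoft aligner in Array Studio, allowing 2 mismatches, counted them on Ensembl R86 gene models and deposited FPKM for 48795 genes. Counts and depth were not analysed here, so intervals for counting error are not given, and the count model of the study's methods was replaced by limma on log2 values. The deposited FPKM are estimates and can be split between genes of near-identical sequence.

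Genes whose group mean reached 0.5 FPKM at baseline or under isotype were tested on log2(FPKM + 0.1) with limma 3.58.1 in R 4.3.3 (lmFit, eBayes with a trend, Benjamini-Hochberg adjustment), on the 3 baseline and 5 isotype tumors without covariates. The thresholds were an adjusted p of 0.01 with a 2-fold change for a call and of 0.05 for passing. Gene types, exon lengths and overlaps came from GENCODE M21 on the same build, which matched 99.3% of the genes, and promoter windows from RefSeq (GRCm38.p6). Named were the 12 protein-coding genes highest and lowest in difference among those called at 1 FPKM or more, 6 noncoding genes in each direction, list members that passed, up to 4 of each list that did not in list order, and Ptprc, Cd8a, Pdcd1 and Cd274. Of the list members that did not pass, the text prints those of some lists, and a list member that the rule allows is not reported here. Genes of S6 kinases were left out of the ribosomal list, and the histone list holds H1f0, which is not replication-dependent. The groups, members and lists were chosen with earlier results of these data known. Shares of summed FPKM were compared by exact permutation tests. The alternatives were another pseudocount, other filters, other scalings, array weights, no trend, all tumor groups in 1 fit, a replicate block and leaving out each tumor. Leaving out both tumors numbered 3 and fitting protein-coding genes only were chosen after seeing the data. The fit was tested on simulated data. Each of the 46 value columns was matched to its sample, and samples outside the 2 groups were used for side-by-side levels and the fit of all groups.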

Additional observations from a re-analysis of the deposited data

Results flagged for a closer look

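Among 90 reported genes and shares tested for a stray isotype tumor, 5 had a highest or lowest tumor whose gap to its nearest neighbour, divided by the range of the 5 tumors, was above Dixon's critical value at 95% (log2 scale for genes). Chance gives about 1 in 20. Ccl6 in isotype tumor 4 was at 18.3 FPKM against 25.4 to 28.2 FPKM in the others (ratio 0.755). Ulk4 in isotype tumor 2 was at 1.59 FPKM against 2.04 to 2.12 FPKM (ratio 0.860). In isotype tumor 3, Hbb-bs was at 465 FPKM against 26.4 to 50.6 FPKM (ratio 0.774), Btg2 at 9.90 FPKM against 6.29 to 6.96 FPKM (ratio 0.777), and the replication-dependent histone share at 0.0336% against 0.0397% to 0.0419% (ratio 0.733). These tumors stayed in the fit.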

How the results depend on the processing

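The number of calls was sensitive to single tumors. Leaving out 1 tumor at a time gave 13 (without baseline tumor 2) to 166 (without isotype tumor 3) called genes beside 89, 4 to 71 protein-coding genes beside 39, 9 to 94 pseudogenes and noncoding genes beside 49, and 11 (without baseline tumor 1) to 88 passing list genes beside 56. Array weights gave 398 called genes, 191 protein-coding, 205 noncoding and 207 list genes, and with 1 FPKM added 135 genes were called, 88 of them noncoding. Without a filter 57 genes, 17 of them protein-coding, were called and 35 list genes passed. The fit of all tumor groups passed 25 list genes. Leaving out both tumors numbered 3, chosen after seeing the data, gave 145 called genes, 79 protein-coding genes and 107 list genes. The replicate block, fitted on tumors 1 to 3 of both groups, called 1 gene, 0 protein-coding and 1 noncoding, and 0 list genes passed, with 1630 genes at an unadjusted p under 0.05. Deviations of same-numbered tumors correlated at 0.060, -0.067 and -0.035, so the numbers do not pair the tumors. Of 1730 values of the 87 named genes that passed, 1107 still passed under the alternative, 623 did not and 0 changed sign. Ptprc, Cd8a, Pdcd1 and Cd274, which did not pass, changed sign in 16 of 80 values and passed in none. Other scalings moved the median of all genes by less than 0.1 on the log2 scale. No share passed its threshold under any alternative. With a tumor left out there are fewer than 56 assignments and the smallest exact p is above 0.05. No share could pass there, so these alternatives say nothing about the shares. The causes were not tested. FPKM hold no depth, so the counting error of low genes is unknown.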

Other observations

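Levels of some genes called higher in baseline were set beside the groups outside the comparison, as values. Gm4332 was at 136 to 172 FPKM in the 3 cultures of MC-38 cells, at 3.29 to 7.79 FPKM in the isotype tumors of day 11, at 3.13 to 7.09 FPKM in the PD-1 antibody tumors of day 15 and at 2.10 to 5.60 FPKM in the tumors of tamoxifen-treated WT mice. mt-Atp8 was at 2472 to 2961 FPKM in the cultures and had a median of 182 FPKM in the isotype tumors of day 11, of which 1 reached 6186 FPKM. Gm12918 had medians of 22.8 FPKM in the isotype tumors of day 11 and 62.0 FPKM in the PD-1 antibody tumors of day 11, while the PD-1 antibody tumors of day 15 reached 33.9 FPKM and had a median near 0.

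Gas6 had medians above the baseline tumors in other groups, at 7.96 FPKM in the isotype tumors and 12.5 FPKM in the PD-1 antibody tumors of day 11 and 48.9 FPKM in the PD-1 antibody tumors of day 15. These differences were not tested.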
